A study of Oryctolagus cuniculus with 4 samples.

Results

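EREG and NRG1 encode epiregulin and neuregulin 1, secreted growth factors of the epidermal growth factor (EGF) family. They are the rows carrying these symbols in the feature tables of the rabbit (Oryctolagus cuniculus) bladder libraries, under the identifiers ENSOCUG00000016277 and ENSOCUG00000005836, and make up 2 of 18475 gene rows, of which 9771 carry a symbol. The pair was chosen by its measured levels in the injured and normal cells of these samples, so those levels are given as a description and without a test. EREG held 8198 unique molecular identifiers (UMIs, each standing for 1 captured transcript) and NRG1 held 4757 UMIs over all cells kept.

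The study profiled cells of the rabbit bladder mucosa by droplet-based 3' single-cell sequencing in 4 samples, 2 Normal and 2 Injury. Normal samples came from the bladder in homeostasis. Injury samples were collected on day 10 after a piece of mucosa had been cut out, by which time epithelium covered the wound again. All 4 were digested with collagenase from a piece of mucosa that held stroma as well as epithelium, although the tissue is labelled urothelium. The study's methods name adult New Zealand rabbits and no transgene. The study calls the samples of a group biological replicates, the labels do not tie them to animals, and each sample is a single library.

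Ligands of this family are made as membrane-bound precursors and released by cleavage at the cell surface. Epiregulin binds the EGF receptor (EGFR) and ERBB4 and, as a low-affinity ligand, gives long-lasting signals in epithelia, while neuregulin 1 binds ERBB3 and ERBB4, whose partner ERBB2 has no ligand of its own. Stromal cells are a known source of both ligands for nearby epithelium in the gut.

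The libraries held 5823 to 6884 barcodes and 28745017 to 47881609 UMIs each, and 4308 to 6081 cells a sample were kept. Normal 1 was the shallowest, with a median of 4814 UMIs a cell against 6755 to 7186 in the other samples. Pairs of libraries shared 8 to 13 barcodes, at most 0.223% of the smaller library. Clusters were named from marker genes, so each class is called "like" its cell type. Levels are UMIs of the gene per 1000000 UMIs summed over the cells of a class in 1 sample (CPM), and intervals are exact Poisson 95% intervals, which cover counting error only. Where a gene had 0 UMIs, the upper limit given is the level that 3 counts would make. In such sums, fewer producing cells and less RNA per cell cannot be told apart.

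EREG was carried by fibroblast-like cells of the injured bladder and was close to absent from those of the normal bladder. In fibroblast-like cells it stood at 270.0 CPM (4567 UMIs) in Injured 1 and 130.1 CPM (2770 UMIs) in Injured 2. It stood at 0.927 CPM (6 UMIs) in Normal 1 and 0.638 CPM (15 UMIs) in Normal 2, with intervals of 0.340 to 2.02 and 0.357 to 1.05 CPM. The groups did not overlap, and the lower injured sample was 140 times the higher normal sample. The means were 200 ± 99.0 CPM (SD, n = 2) in the injured samples and 0.782 ± 0.204 CPM (SD, n = 2) in the normal samples, a ratio of 256. Of the 8777 genes tested in fibroblast-like cells, 16.0% had both injured samples above both normal samples.

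NRG1 was already present in normal fibroblast-like cells and was higher after injury. Its level was 93.7 CPM (1585 UMIs) in Injured 1 and 91.1 CPM (1941 UMIs) in Injured 2. The normal samples held 32.6 CPM (211 UMIs) and 26.0 CPM (611 UMIs). The groups again did not overlap, with means of 92.4 ± 1.82 CPM in the injured samples and 29.3 ± 4.67 CPM in the normal samples (SD, n = 2 each), a ratio of 3.16. The injured samples lay close together for NRG1 and wide apart for EREG.

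**Figure D1:**
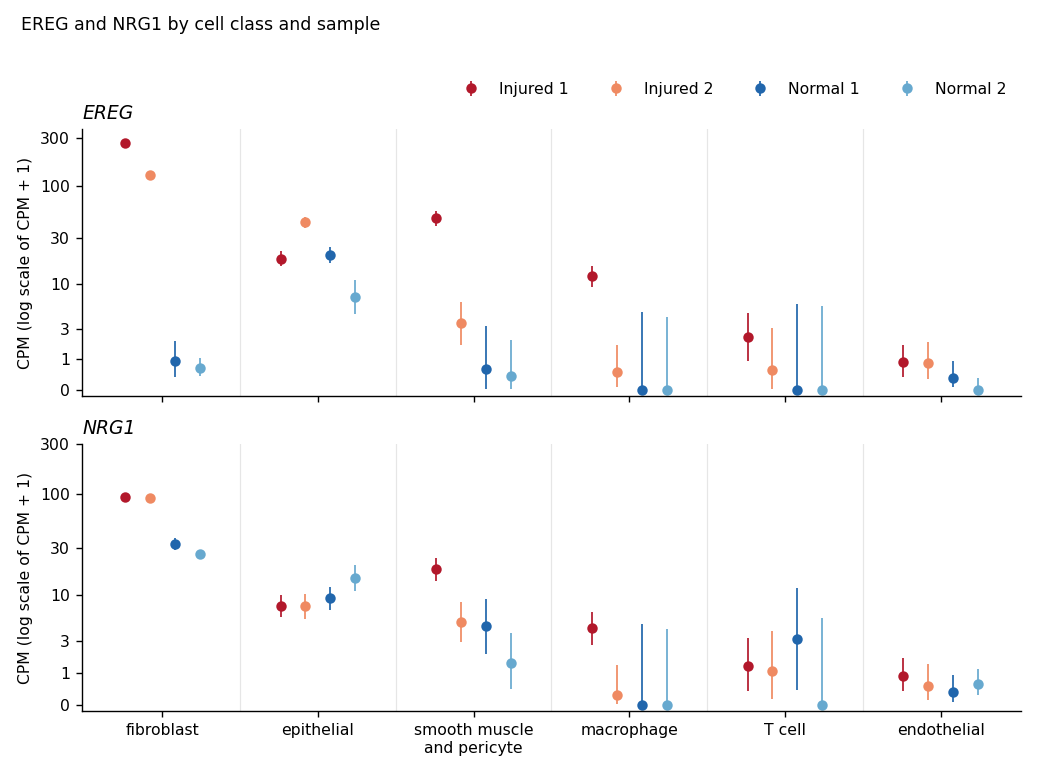
EREG (top) and NRG1 (bottom) in CPM by cell class, on a log scale of CPM + 1. Each point is 1 sample and each bar an exact Poisson 95% counting interval. In fibroblast-like cells the injured samples sit at 130.1 and 270.0 CPM for EREG with both normal samples under 1, and at 91.1 and 93.7 CPM for NRG1 with the normal samples at 26.0 and 32.6.

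The share of cells with a UMI showed the same order at equal depth. Each cell was thinned to 1000 UMIs, which left out 1, 0, 6 and 11 fibroblast-like cells of Injured 1, Injured 2, Normal 1 and Normal 2. EREG was then found in 9.34% and 6.56% of injured and in 0.0919% and 0.0565% of normal fibroblast-like cells. T cell-like cells, taken as the background class, gave 0.347% and 0.0630% in the injured samples and no EREG UMI among 130 and 122 cells of Normal 1 and Normal 2. The limit that 3 counts set in these cells, 4.88 and 4.67 CPM, was above the level of normal fibroblast-like cells. This class therefore could not show whether the few normal UMIs exceed the background. Endothelial-like cells of Normal 2 held 0 EREG UMIs, which allows up to 0.248 CPM, against 0.638 CPM (0.357 to 1.05) in fibroblast-like cells. In Normal 1, endothelial-like cells held 0.312 CPM (3 UMIs). The interval of 0.0643 to 0.911 CPM overlapped that of fibroblast-like cells, 0.340 to 2.02 CPM. The difference between these classes was not tested. NRG1 was found in 5.94% and 6.94% of injured and 2.73% and 2.52% of normal fibroblast-like cells, against 0% to 0.449% of T cell-like cells. Without thinning the EREG shares were 18.6%, 15.8%, 0.404% and 0.245%, and the NRG1 shares 14.0%, 20.3%, 10.1% and 13.5%, in Injured 1, Injured 2, Normal 1 and Normal 2. Median depths were 5089 to 8537 UMIs in fibroblast-like and 3361 to 4251 UMIs in T cell-like cells.

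The class that held most EREG transcripts differed between the conditions. Fibroblast-like cells held 91.9% and 90.1% of all EREG UMIs in the injured samples (of 4970 and 3073 UMIs). In the normal samples, where only 117 and 38 EREG UMIs were found in all, epithelial-like cells held 91.5% and 57.9% and fibroblast-like cells 5.13% and 39.5%. NRG1 had its largest share in fibroblast-like cells in every sample, at 90.4% and 95.2% in the injured and 77.0% and 88.3% in the normal samples. Epithelial-like cells held 3.19% and 2.11% of NRG1 UMIs after injury and 17.9% and 6.65% in the normal samples.

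Within the fibroblast-like cells the ligands were confined mostly to particular subsets. Sub-clustering gave 7 subsets that were kept, named here by leading genes except for TCF21, which comes from the best-scoring marker list of its subset. They were CCL2/MYOC, DPP10/TCF21, ADH6/PLBD1, APOD/CP, WIF1/HHIP, MMP10/MMP3 and COCH/COL11A1. TCF21 is only a label and did not set its subset apart. It stood at 1110, 1190, 286 and 1153 CPM there in Injured 1, Injured 2, Normal 1 and Normal 2. ADH6/PLBD1 cells held 1022, 696, 422 and 1039 CPM of TCF21 in the same order. MMP10 and MMP3 are stromelysins, proteases that cut extracellular matrix, WIF1 and HHIP are secreted or membrane-bound inhibitors of Wnt and hedgehog signalling, and TCF21 is a transcription factor of mesenchymal cells. The subsets were made from variable genes, with EREG, NRG1 and the other ligands of the family left out. They are still clusters of the same cells, so the levels below describe them and test nothing.

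The MMP10/MMP3 subset had the highest EREG level of any subset. It held 1791 CPM (1206 UMIs in 76 cells) in Injured 1 and 944 CPM (1195 UMIs in 148 cells) in Injured 2. Normal cells of the subset held 2.83 CPM (3 UMIs in 181 cells) and 2.96 CPM (8 UMIs in 372 cells), with intervals of 0.583 to 8.27 and 1.28 to 5.84 CPM. The groups did not overlap, at 1367 ± 599 against 2.90 ± 0.0963 CPM (SD, n = 2 each), a ratio of 472 that rests on 11 normal UMIs. Of the genes tested in this subset, 34.0% had both injured samples above both normal samples.

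NRG1 also had its highest injured level in the MMP10/MMP3 subset. It stood at 1041 CPM in Injured 1 and 769 CPM in Injured 2, and at 135 and 86.7 CPM in Normal 1 and Normal 2. The means were 905 ± 192 against 111 ± 34.0 CPM (SD, n = 2 each), a ratio of 8.17 with no overlap. After thinning, an NRG1 UMI was found in 57.9% and 49.3% of the injured and in 11.9% and 8.09% of the normal cells of this subset, and an EREG UMI in 50.6% and 38.4% of the injured and 0.339% and 0.265% of the normal cells.

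The DPP10/TCF21 subset came next in EREG level, and in Injured 1 it held more EREG UMIs than any other subset. EREG stood at 688 and 257 CPM in the injured samples (1747 and 969 UMIs) and at 0.787 and 0.696 CPM in the normal samples (1 and 4 UMIs). NRG1 stood at 155 and 144 CPM in the injured and 15.7 and 23.8 CPM in the normal samples. Both ligands were separated by group here, where 17.3% of genes tested had injured samples above normal ones. NRG1 averaged 149.6 ± 7.83 against 19.8 ± 5.73 CPM (SD, n = 2 each), a ratio of 7.56.

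The WIF1/HHIP subset came next to the MMP10/MMP3 subset in NRG1 level, in normal as in injured samples. NRG1 reached 729 and 275 CPM in the injured samples and 111 and 40.8 CPM in the normal samples. Its group means differed by a ratio of 6.63 and the groups did not overlap, as held for 16.6% of genes tested in this subset. EREG was at 177 CPM (92 UMIs) and 66.0 CPM (70 UMIs) in the injured samples, with 1 UMI in Normal 1 and 0 UMIs among 717 cells of Normal 2, which allows up to 0.558 CPM.

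The APOD/CP subset is named after the genes of apolipoprotein D, a lipid carrier, and ceruloplasmin, a copper carrier. EREG in it was at 331 and 83.8 CPM in the injured samples, with 0 and 2 UMIs in the normal samples. NRG1 was at 20.8 and 15.1 CPM in the injured and 0.909 and 5.12 CPM in the normal samples, again without overlap, which 24.7% of genes tested here shared in this direction. The COCH/COL11A1 subset was found almost only after injury, with 72 and 101 cells against 0 and 2, and held EREG at 321 and 112 CPM and NRG1 at 27.9 and 46.3 CPM.

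NRG1 transcripts were scarce in the CCL2/MYOC and ADH6/PLBD1 subsets, whose best-scoring marker list was that of SFRP2 and PCOLCE2. EREG after injury was lower in both than in the other subsets. In CCL2/MYOC cells, EREG was at 30.7 and 23.2 CPM after injury with 1 UMI in each normal sample, a direction shared by 21.1% of genes tested, and 3 cells held 57.0% and 53.8% of the injured UMIs. NRG1 was at 1.01 to 2.95 CPM there in the 4 samples and overlapped between groups. In ADH6/PLBD1 cells EREG came to 9 UMIs and 1 UMI in the injured samples and 0 in both normal samples, a direction shared by 14.3% of genes tested, and NRG1 to at most 6 UMIs in any sample.

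**Figure D2:**
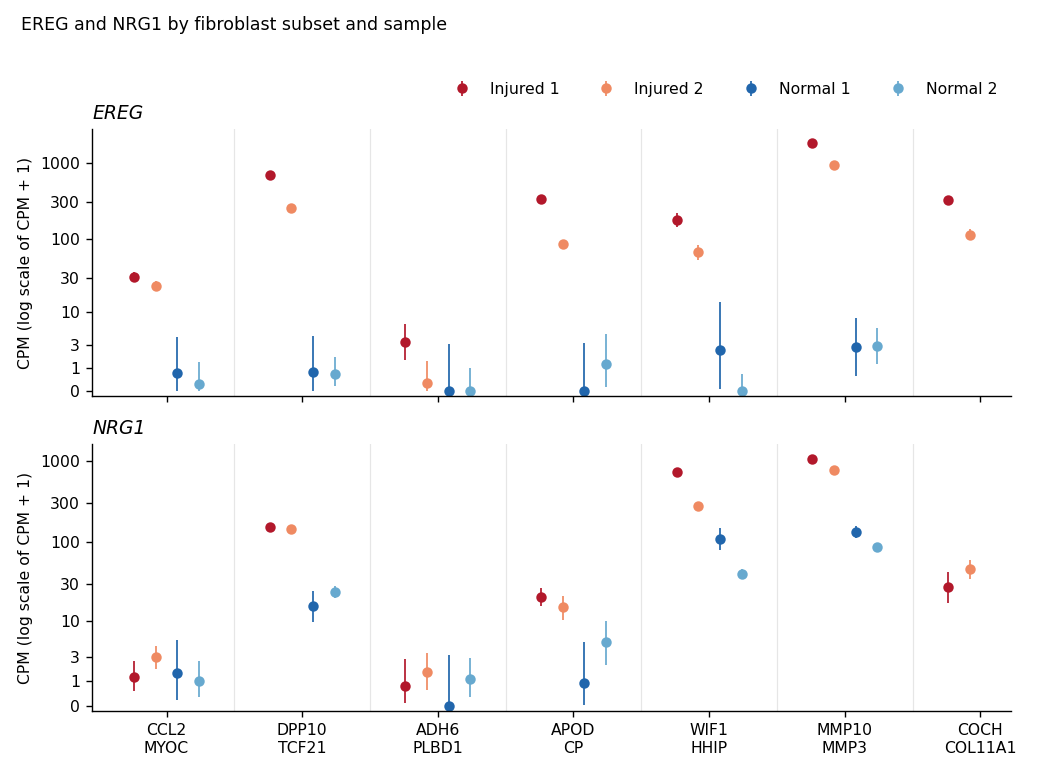
EREG (top) and NRG1 (bottom) in CPM by fibroblast-like subset, on a log scale of CPM + 1, with 1 point a sample and bars for exact Poisson 95% counting intervals. EREG is highest in the MMP10/MMP3 subset of the injured samples, at 944 and 1791 CPM, while NRG1 is high in both the MMP10/MMP3 and the WIF1/HHIP subsets and is present there in the normal samples too. COCH/COL11A1 has no normal points because fewer than 20 normal cells fell in it.

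Ordered by EREG level, both injured samples began with MMP10/MMP3 and DPP10/TCF21 and ended with WIF1/HHIP, CCL2/MYOC and ADH6/PLBD1. The MMP10/MMP3 values did not overlap those of any other subset. The ranges of DPP10/TCF21, APOD/CP and COCH/COL11A1 overlapped one another, and those of the last 2 also overlapped that of WIF1/HHIP. For NRG1 the order in both injured samples was MMP10/MMP3, WIF1/HHIP, DPP10/TCF21, COCH/COL11A1 and APOD/CP, with no overlap between the ranges of neighbours. In the normal samples the NRG1 ranges of MMP10/MMP3 and WIF1/HHIP overlapped, with DPP10/TCF21 below both.

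Some subsets held more of the transcripts than their share of the cells. The MMP10/MMP3 subset was 3.70% and 6.13% of injured fibroblast-like cells yet held 26.4% and 43.1% of their EREG UMIs and 44.2% and 50.2% of their NRG1 UMIs. DPP10/TCF21 cells were 349 of 2053 and 474 of 2414 injured fibroblast-like cells. They held a further 38.3% and 35.0% of EREG and 24.9% and 28.0% of NRG1, and WIF1/HHIP cells held 23.97% and 15.04% of NRG1. In the normal samples MMP10/MMP3 cells, 14.6% and 11.4% of fibroblast-like cells, held 67.8% and 38.3% of NRG1, and WIF1/HHIP cells held 20.9% and 35.8%.

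**Figure D3:**
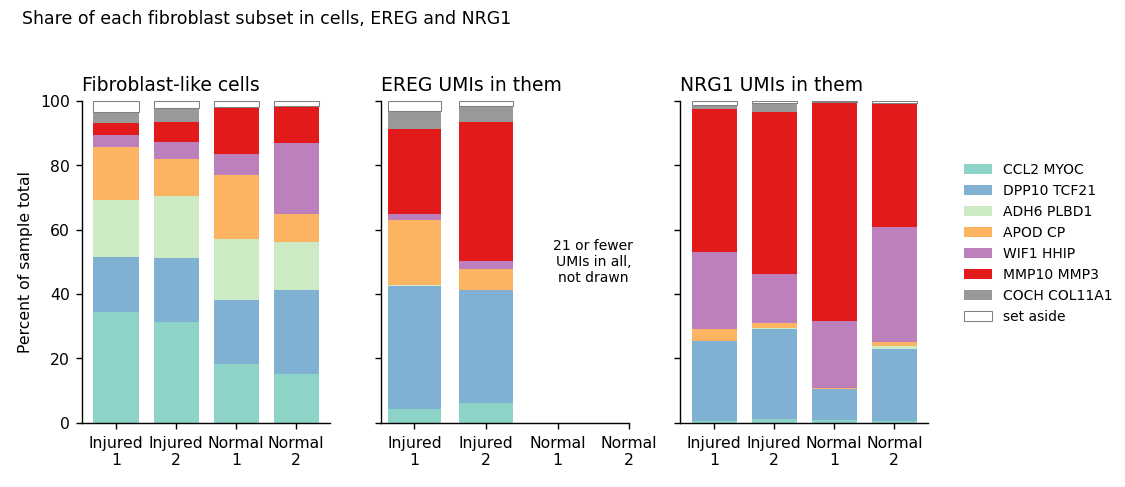
Stacked bars of the share of each fibroblast-like subset in the cells, the EREG UMIs and the NRG1 UMIs of the fibroblast-like class, in percent for each sample, with cells set aside as likely doublets in white. MMP10/MMP3 cells are 3.70% and 6.13% of injured cells and hold 26.4% and 43.1% of EREG and 44.2% and 50.2% of NRG1. Normal EREG is not drawn because the samples held only 6 and 15 UMIs.

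The subsets with most NRG1 were a larger share of normal than of injured fibroblast-like cells, so the class level understated the difference within subsets. The mean over the 6 subsets with at least 20 cells in every sample, each given equal weight, was 325 and 201 CPM for NRG1 in the injured and 43.9 and 26.4 CPM in the normal samples. For EREG it was 503 and 229 CPM against 1.15 and 0.865 CPM. The groups stayed apart on this scale for both ligands.

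At the level of single cells, EREG was concentrated further. The 5% of fibroblast-like cells with most EREG held 76.2% and 76.4% of its UMIs in the injured samples, and the highest cells held 114 and 68 UMIs. Cells with at least 5 EREG UMIs numbered 188 and 164 in the injured and 0 in both normal samples. For NRG1 the top 5% of cells held 75.02% and 58.2% in the injured and 70.1% and 54.8% in the normal samples, and the highest injured cells held 37 and 31 UMIs.

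The ligands were often found in the same cells. Among injured fibroblast-like cells with an NRG1 UMI, 58.5% and 51.4% also had an EREG UMI, against 12.1% and 6.76% of the cells without one. Median depths of these cells were nearly equal, at 8076 against 8007 UMIs in Injured 1 and 8537 against 8535 in Injured 2. In the MMP10/MMP3 cells alone, EREG was found in 71.8% and 66.9% of cells with NRG1 and in 80% and 50% of the few without it. Within DPP10/TCF21 cells the shares were 69.1% and 57.6% with NRG1 against 26.8% and 18.7% without, where cells with NRG1 were deeper, at medians of 7848 and 8328 UMIs against 6594 and 7225.

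The correspondence of subsets between conditions rests on integration of the samples. The leading genes of the MMP10/MMP3 subset were present on both sides, with MMP3 at 645 to 1294 CPM and PTPRQ at 171 to 398 CPM over the 4 samples. DCN, which encodes the matrix proteoglycan decorin, differed widely in it, at 16639 and 12804 CPM in injured and 156 and 536 CPM in normal cells, while COL1A1 stood at 6836, 7855, 1750 and 9139 CPM in Injured 1, Injured 2, Normal 1 and Normal 2. T cell-like cells held DCN at 27.7 to 464 CPM. The 5 fibroblast markers summed to 49091 and 49153 CPM in the injured and 10221 and 31722 CPM in the normal cells of the MMP10/MMP3 subset. DCN also differed widely in the WIF1/HHIP subset, at 11727 and 9289 CPM in injured and 523 and 1518 CPM in normal cells. WIF1 stood at 171 to 235 CPM there over the 4 samples. In the DPP10/TCF21 subset DPP10 itself differed by group, at 41.3 and 64.6 CPM in injured and 15.7 and 8.18 CPM in normal cells. EDIL3, from its marker list, stood at 130 to 239 CPM in this subset over the 4 samples. Normal APOD/CP cells held DPP10 at 12.7 and 7.03 CPM, close to normal DPP10/TCF21 cells.

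When cells were clustered without integration, injured and normal fibroblast-like cells fell into nearly separate clusters. The cluster with the highest EREG level in its injured cells, among those with at least 20 of them, then held 437 and 688 injured cells and 1 and 8 normal cells. EREG stood at 1016 and 412 CPM and NRG1 at 445 and 307 CPM in its injured cells. A larger cluster of 1605 and 1633 injured and 4 and 56 normal cells also carried EREG, at 94.3 and 27.8 CPM in its injured cells, with NRG1 at 5.12 and 7.35 CPM. The clusters in which most normal NRG1 lay held 296 cells of Normal 1, at 118 CPM, and 1591 cells of Normal 2, at 49.7 CPM. The levels over the whole fibroblast-like class do not depend on that correspondence.

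Markers of macrophages and neutrophils were also higher in injured fibroblast-like cells, while those of some other immune cells were not. The 7 macrophage markers summed to 47.2 and 31.8 CPM after injury and 5.56 and 6.38 CPM in the normal samples, with 5 of 7 higher in both injured samples, and the 5 neutrophil markers to 120 and 58.7 against 13.7 and 31.5 CPM, with 4 of 5 higher. Each macrophage and neutrophil marker was above 0 in some sample. Of all genes tested in the class, 16.0% had both injured samples above both normal samples. T cell markers summed to 27.6 and 8.97 against 12.4 and 8.25 CPM, with overlap, and mast cell markers to 2.60 and 2.16 against 3.24 and 2.89 CPM. B cell and antibody-secreting markers were higher in both injured samples, with sums at 9.81 CPM or less in every sample. In the MMP10/MMP3 subset the macrophage sum was 143 CPM in Injured 1, and 4.71 to 9.48 CPM in the other samples. Macrophage-like cells themselves held far less EREG and NRG1 than the fibroblast-like cells, as given below. The median mitochondrial share of fibroblast-like cells was 7.20% and 7.35% in injured and 8.20% and 8.56% in normal samples. The part of these marker and quality values in the EREG and NRG1 differences was not tested.

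Epithelial-like cells, the urothelium, held EREG transcripts in both conditions. Its level was 18.6 CPM (135 UMIs) in Injured 1, 43.8 CPM (246 UMIs) in Injured 2, 20.3 CPM (107 UMIs) in Normal 1 and 7.23 CPM (22 UMIs) in Normal 2. The groups overlapped, at 31.2 ± 17.8 against 13.8 ± 9.23 CPM (SD, n = 2 each), and Injured 1 lay below Normal 1. In the normal bladder the urothelium was the class with the highest EREG level, and both normal epithelial values lay above the fibroblast-like ones. After injury the order turned, with both injured fibroblast-like values above the epithelial ones. The epithelial-like class values include sub-clusters set aside below for markers of other classes. Among these were 57 cells led by COL1A1, COL1A2 and DCN, and 38 cells led by IL1B and VWF. Their part in the EREG and NRG1 levels of the class was not tested.

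NRG1 in epithelial-like cells was 7.72 CPM (56 UMIs) and 7.66 CPM (43 UMIs) in the injured and 9.29 CPM (49 UMIs) and 15.1 CPM (46 UMIs) in the normal samples. Both injured values lay below both normal values, as did those of 15.5% of genes tested. The separation did not hold when cells over a mitochondrial share of 10% were removed, which gave 6.13 and 8.59 against 8.88 and 6.31 CPM.

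Among urothelial sub-clusters NRG1 had its highest level in the KRT5/ITGA2 sub-cluster in each of the 4 samples, with no test of the difference between sub-clusters. The leading genes of KRT5/ITGA2 mark basal cells, the layer next to the stroma. It stood there at 32.7 and 36.4 CPM in the injured and 24.6 and 40.0 CPM in the normal samples, on 7 to 39 UMIs a sample. The groups overlapped, at 34.5 ± 2.58 against 32.3 ± 10.9 CPM (SD, n = 2 each). This sub-cluster held 42.9%, 44.2%, 79.6% and 15.2% of epithelial NRG1 UMIs in Injured 1, Injured 2, Normal 1 and Normal 2, and in Normal 2 the F3/PLAU sub-cluster held 71.7%. Basal markers were also the best-scoring list of F3/PLAU, whose leading genes include the laminin genes LAMB3 and LAMA3.

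EREG was found in all 5 sub-clusters that were kept. In the RNF39 sub-cluster it stood at 31, 65.3, 35.4 and 2.38 CPM in the same sample order, with overlap between groups. In the S100A12/PIGR sub-cluster it was 18.9 and 74.6 CPM after injury and 22.6 CPM in Normal 1, while Normal 2 gave only 7 cells. The UPK1B sub-cluster, led by a uroplakin gene of the umbrella cell surface, had 2 to 15 EREG UMIs a sample, at 11.9, 5.57, 4.27 and 12.1 CPM. In the F3/PLAU sub-cluster the values were 17.1 and 33.2 CPM after injury and 16.5 and 6.56 CPM in the normal samples, so injured samples were higher, as they were for 42.9% of genes with enough UMIs there. In basal KRT5/ITGA2 cells the values of 16.4, 1.91, 16.4 and 0 CPM overlapped between groups and with those of UPK1B cells.

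**Figure D4:**
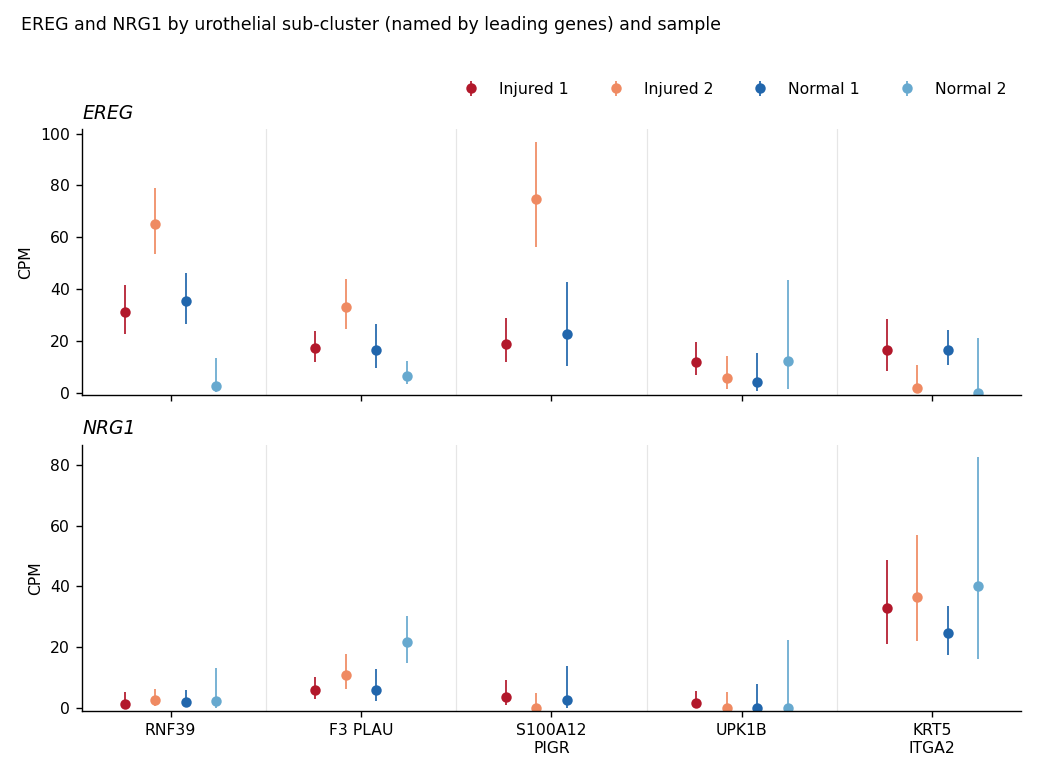
EREG (top) and NRG1 (bottom) in CPM by urothelial sub-cluster on a linear axis, with 1 point a sample and bars for exact Poisson 95% counting intervals. NRG1 is at 24.6 to 40.0 CPM in the basal KRT5/ITGA2 sub-cluster of all 4 samples, and EREG is highest in the RNF39 and S100A12/PIGR sub-clusters of Injured 2, at 65.3 and 74.6 CPM.

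The other classes carried few transcripts of either ligand. Smooth muscle and pericyte-like cells held EREG at 47.9 CPM (140 UMIs) in Injured 1 and 3.56 CPM (11 UMIs) in Injured 2, with 1 UMI in each normal sample, where 20.1% of genes tested were higher in both injured samples. In Injured 1, 3 cells held 81.4% of these UMIs. Of the 4 cells of the class with at least 5 EREG UMIs, 3 had at least 20 DCN UMIs and 2 were among the highest doublet scores. NRG1 in this class was 18.5, 5.17, 4.66 and 1.51 CPM.

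In macrophage-like cells a single cell of Injured 1 held 46 of 59 EREG UMIs, and it too had a high doublet score and at least 20 DCN UMIs. The class level was 12.1 and 0.489 CPM after injury and 0 in the normal samples, which allows up to 3.97 and 3.41 CPM. NRG1 there was 4.31 and 0.245 CPM after injury and 0 in both normal samples. Both ligands had injured samples above normal ones, as did 27.9% of genes tested in the class. In endothelial-like cells EREG and NRG1 stood at 0.864 CPM or less in every sample, and EREG, on 12 UMIs in the injured and 3 in the normal samples, was higher in both injured samples, as were 24.2% of genes tested. T cell-like cells held at most 7 EREG UMIs and 4 NRG1 UMIs a sample. Mast cell-like cells, 37 and 44 in the injured samples, held NRG1 at 15.4 CPM (1 UMI) and 49.0 CPM (6 UMIs). EREG in them came to 2 UMIs in Injured 1 and 0 in Injured 2. The normal samples had 7 and 18 such cells, too few for a level.

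The other ligands of the family gave the setting. Of 9 further ligands, 6 had a row, and NRG2, NRG3 and NRG4 were not analysed here. EGF, TGFA and EPGN came to at most 20 UMIs in any of the larger classes and samples. BTC, which encodes betacellulin, held 25 and 44 UMIs in injured and 0 and 1 UMI in normal fibroblast-like cells, and did not pass edgeR's quasi-likelihood test (Benjamini-Hochberg adjusted p = 0.126) but passed DESeq2 (adjusted p = 0.0111).

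AREG, which encodes the EGFR ligand amphiregulin and lies beside EREG on the same chromosome, was high in epithelial-like cells of all samples, at 3444 to 6017 CPM. In fibroblast-like cells it stood at 505 and 399 CPM after injury and 173 and 21.9 CPM in the normal samples. T cell-like cells held 14.99 to 150 CPM of it, and their value in Normal 1, 150 CPM, lay close to the fibroblast-like value of that sample. The test of fibroblast-like cells did not call AREG, with a log2 fold change of 2.39 and an edgeR quasi-likelihood Benjamini-Hochberg adjusted p of 0.415.

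In the MMP10/MMP3 subset AREG was at 5659 and 3960 CPM after injury and 322 and 80.4 CPM in the normal samples. It rose by 4.42 ± 0.61 (SE) on the log2 scale, with an edgeR quasi-likelihood Benjamini-Hochberg adjusted p of 0.0160, in 2 of 2 injured samples. Of the genes tested in this subset, 0.934% rose. AREG was measured in the same samples and cells as EREG and NRG1. AREG was likewise higher after injury in DPP10/TCF21 cells, at 1003 and 624 against 167 and 15.5 CPM, and in WIF1/HHIP cells, at 1332 and 537 against 181 and 12.5 CPM, without passing the test in either.

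HBEGF, which encodes heparin-binding EGF-like growth factor, went the other way in the urothelium and in some other classes. It stood at 169 and 126 CPM in injured and 424 and 312 CPM in normal epithelial-like cells. It fell by 1.57 on the log2 scale (SE 0.25, edgeR quasi-likelihood test, Benjamini-Hochberg adjusted p = 0.0478), and 1.04% of genes tested there fell. The call was lost without either injured sample, with adjusted p of 0.220 without Injured 1 and 0.291 without Injured 2 in the same edgeR test. In fibroblast-like cells HBEGF overlapped between the groups, at 17.6 and 22.7 against 53.4 and 21.3 CPM. T cell-like cells held 8.84 and 10.5 CPM after injury against 79.7 and 20.3 CPM. HBEGF there did not pass edgeR's quasi-likelihood test (Benjamini-Hochberg adjusted p = 0.0658) and passed DESeq2 (adjusted p = 0.0239). Smooth muscle and pericyte-like, macrophage-like, CCL2/MYOC and APOD/CP cells had the same order, while endothelial-like cells and the other fibroblast-like subsets tested overlapped.

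The receptors for these ligands were found in both stroma and urothelium. EGFR, the receptor of EREG, stood at 14.8 to 20.1 CPM in fibroblast-like cells over the 4 samples, with overlap between groups. In epithelial-like cells EGFR was at 16.1 and 15.5 CPM after injury and 24.5 and 18.1 CPM in the normal samples, so both injured values were lower, and it did not pass edgeR's quasi-likelihood test (Benjamini-Hochberg adjusted p = 0.243) or DESeq2 (adjusted p = 0.413). ERBB2, the shared partner through which neuregulin signals are passed, was at 25.1 to 32.9 CPM in fibroblast-like cells with overlap between groups. In epithelial-like cells ERBB2 was at 101 and 83.3 CPM after injury and 24.1 and 31.9 CPM in the normal samples, a log2 difference of 1.45 ± 0.30 (SE) that did not pass edgeR's quasi-likelihood test (Benjamini-Hochberg adjusted p = 0.0779) and did pass DESeq2 (adjusted p = 0.00394). ERBB4, which binds both ligands, had 0 UMIs in fibroblast-like and epithelial-like cells of all 4 samples, which allows up to 0.463 CPM in the shallowest fibroblast-like and 0.987 CPM in the shallowest epithelial-like sample. ERBB3 was not analysed here.

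**Figure D5:**
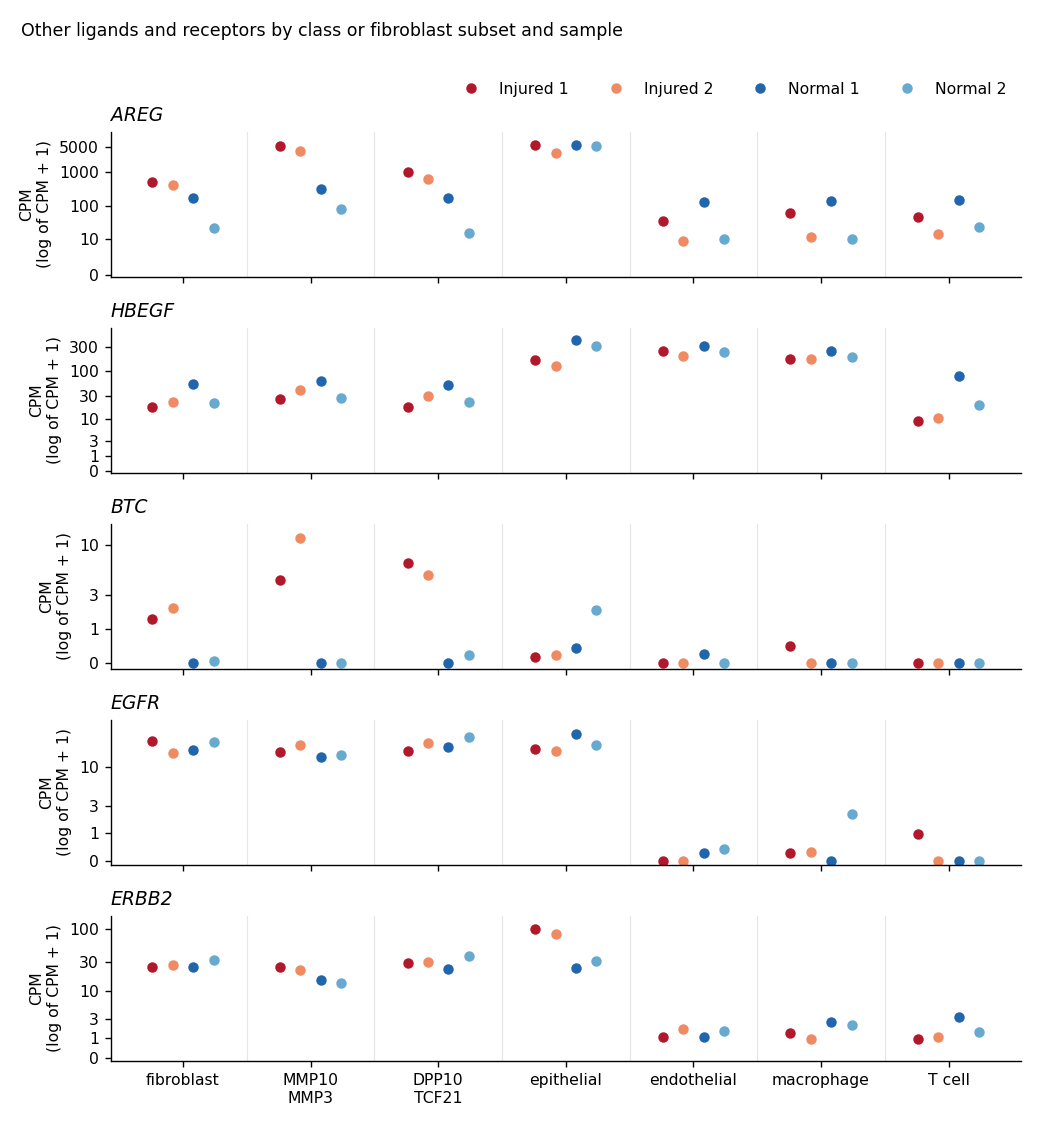
AREG, HBEGF, BTC, EGFR and ERBB2 in CPM by class or fibroblast-like subset, on log scales of CPM + 1 that differ between panels, with 1 point a sample. In the MMP10/MMP3 subset AREG stands at 3960 and 5659 CPM after injury against 80.4 and 322 CPM in the normal samples, HBEGF is lower in both injured epithelial samples, and ERBB2 is higher in both.

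Of 49 genes in 6 lists of the pathway and of tissue stress, 31 had a row, and 26 were tested in fibroblast-like cells. With edgeR's quasi-likelihood test 0 of these 26 passed there, as did 0 of all 8777 genes (0.00% called), while 6 of the 26 and 965 of all genes had an unadjusted p under 0.05 and DESeq2 called 2 and 273. Over all genes the edgeR test called 1.66% in epithelial-like, 5.80% in T cell-like, 0.263% in CCL2/MYOC, 0.0466% in DPP10/TCF21, 1.22% in APOD/CP and 1.35% in MMP10/MMP3 cells, and 0.00% in the other classes and subsets tested. The median log2 difference of the 26 was 0.15 beside 0.0036 for all genes. Of the 9 feedback regulators tested, which include DUSP6 and LRIG1, and of the 9 transcription factors and targets, which include FOSL1, none passed edgeR. FOSL1, an AP-1 subunit induced by growth factors, was at 382 and 218 against 94.8 and 120 CPM in these cells, with adjusted p of 0.221 in edgeR's quasi-likelihood test and 0.00375 in DESeq2.

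In epithelial-like cells 1 of 20 list genes fell, which was HBEGF, and 0 rose by edgeR's quasi-likelihood test, where 0.624% of all genes rose, while 11 of the 20 and 1441 of all 7046 genes had an unadjusted p under 0.05 and DESeq2 called 4 and 513. Their median log2 difference was -0.60 beside -0.0039 for all genes. ETV5, a transcription factor induced by ERK signalling, was at 47.2 and 41.3 CPM after injury and 7.59 and 10.5 CPM in the normal samples, with an adjusted p of 0.0521 in the same edgeR test and 0.000239 in DESeq2. FOSL1 differed the other way, at 225 and 271 against 436 and 767 CPM, with adjusted p of 0.115 in edgeR's quasi-likelihood test and 0.00481 in DESeq2. Of the 8 transcription factors and targets tested in epithelial-like cells, ETV5 and IER3 had both injured samples above both normal ones and FOSL1, MYC and PHLDA1 had both below. All 5 feedback regulators tested there, ERRFI1, SPRED1, SPRED2, DUSP5 and DUSP6, had both injured samples below both normal ones, and none passed either tool. Of all 7046 genes tested in epithelial-like cells, 15.5% had both injured samples below both normal ones. In MMP10/MMP3 cells 1 of 21 list genes rose, which was AREG, and 2 fell, at a median log2 difference of 0.18 over the 21 beside -0.044 for all genes. The genes that fell were the heat shock genes HSPA8, by 1.86, and HSPB1, by 2.04 on the log2 scale (edgeR quasi-likelihood test, Benjamini-Hochberg adjusted p = 0.0281 and 0.0105), in a subset where 0.417% of genes fell. HSPA8 stood at 6799 and 7065 CPM in injured and 28279 and 15572 CPM in normal cells of the subset, beside the higher EREG and NRG1 of the injured cells, and its part in them was not tested. Lower HSPA8 in both injured samples was not particular to this subset. It was seen in every fibroblast-like subset tested and in smooth muscle and pericyte-like, macrophage-like and T cell-like cells, but not in epithelial-like or endothelial-like cells. HSPB1 had this order in most units, with overlap in epithelial-like, CCL2/MYOC and ADH6/PLBD1 cells. In DPP10/TCF21 cells 0 of 22 list genes passed edgeR's test, with 7 of them and 554 of all 6439 genes at an unadjusted p under 0.05, and DESeq2 called 0 and 96. In T cell-like cells, which served as the background, ADAM10, SPRED1 and HSPA8 fell, at adjusted p of 0.0496, 0.0209 and 0.0459 in edgeR's quasi-likelihood test, where 4.61% of genes fell.

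Over 33 values, 1 for each class in each sample with enough cells, EREG and NRG1 had a Pearson r of 0.73 and a Spearman rho of 0.73 on log2(CPM + 10). These points share libraries and classes, so the values are descriptive. The genes most like NRG1 were NPY (r = 0.90), which encodes neuropeptide Y, ADAMTS19 (0.83), an extracellular protease, the netrin receptor gene UNC5C (0.81), the potassium channel gene KCNT2 (0.81) and SVEP1 (0.80), a matrix protein gene. For EREG they were BMPER (0.77), which encodes a regulator of BMP signalling, ENPP6 (0.76), GABRB2 (0.76), ADAMTS19 (0.76) and CFAP69 (0.75). ADAMTS19 stood on both lists, at 51.3 and 45.6 CPM in injured and 1.70 and 4.89 CPM in normal fibroblast-like cells. The list for EREG was not stable, since 0 of its 5 genes stayed among the top 5 with log2(CPM + 1) or with Spearman's rho, while 2 and 1 of those for NRG1 did.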

How the data were processed

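Single-cell libraries of rabbit bladder mucosa (10x 3' chemistry) were analysed in 4 samples, 2 Injury at day 10 and 2 Normal, grouped by their titles. The deposited matrices hold whole-number UMI counts per gene and barcode, which the authors made with Cell Ranger 6.0.1, and no normalization was applied to them. The genome build and gene annotation are not given in the sources used here. The authors' later filter was not applied to the deposited counts and was repeated here. It required a minimum of 500 UMIs and 200 genes and a mitochondrial share, over mitochondrial protein genes, of no more than 15%.

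Seurat 5.3.0 (R 4.3.3) integrated the samples by canonical correlation and found clusters at resolution 0.8, and at 0.4 for fibroblast-like subsets. The genes used for clustering left out EREG, NRG1 and the other ligands of the family. Clusters were named from marker lists and stayed unnamed where markers of other classes or doublet scores (Scrublet in scanpy 1.11.5, top 5% of a sample) prevailed. Doublets were otherwise kept. EREG and NRG1 were matched by symbol, 1 row each, and summed per class or subset and sample. Shares of cells were computed as the mean outcome of thinning each cell to 1000 UMIs. A level was given for samples with at least 20 cells of a class or subset (10 for urothelial sub-clusters).

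UMI counts of each class or subset with at least 20 cells in every sample were summed per sample and all genes were tested, injured against normal, with edgeR 4.0.16 (filterByExpr, TMM, quasi-likelihood test) and Benjamini-Hochberg adjustment at 0.05. DESeq2 1.42.0, other scaling and filters, other clusterings, a replicate block and leaving out each sample were the alternatives. The edgeR test was tried on counts simulated from the means and dispersions of the fibroblast-like sums. The study calls the 2 samples of a group biological replicates, and the labels do not say that they came from separate animals, so p-values measure only the spread between these samples, which may be partly technical. The members and all gene lists were chosen with earlier results of these data known. Named were EREG and NRG1, the other ligands and receptors with a row, every list gene past the threshold in a class, and the 5 genes most like each member among those with at least 50 UMIs in all. BTC, the transcription factors, targets and feedback regulators other than SPRED1 in T cell-like cells, and the fibroblast and leading genes given as context did not come from the threshold. Total UMIs per library limit how firmly zero values can be read. Genes without a row were not analysed here, and no sequence was used.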

Additional observations from a re-analysis of the deposited data

Results flagged for a closer look

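NRG1 moved in opposite directions in 2 classes. Injured minus normal, its mean was 63.2 CPM in fibroblast-like cells and -4.52 CPM in epithelial-like cells, with every injured sample above every normal sample in the one and below in the other. The difference between the classes was not tested, and the epithelial difference shrank to -0.235 CPM with overlapping groups when cells over a mitochondrial share of 10% were removed.

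The ligands were also present in data outside the comparisons. Barcodes removed by the filter held EREG at 45.2 CPM in Injured 1 and 46.8 CPM in Injured 2, against 11.1 and 1.99 CPM in the normal samples. They held NRG1 at 31.9 and 60.4 CPM in Injured 1 and Injured 2, against 10.9 and 8.53 CPM in the normal samples. The same barcodes held DCN at 3780 and 2806 CPM in the injured and 342 and 1669 CPM in the normal samples.

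Clusters left unnamed held EREG at 62.1 CPM in Injured 1 and 51.8 CPM in Injured 2 and at 0 in both normal samples. NRG1 in them was 29.3 and 36.4 CPM in the injured and 4.70 and 16 CPM in the normal samples. DCN stood at 13039 and 13355 CPM in the injured and 5385 and 6151 CPM in the normal cells of these clusters, and 4 injured cells with at least 5 EREG UMIs, 3 in Injured 1 and 1 in Injured 2, all had at least 20 DCN UMIs. Of these cells, 2 of the 3 and the 1 were among the highest doublet scores. A single unnamed cluster, in which 99.2% of cells were among the highest doublet scores, held 36 EREG UMIs of Injured 1 and 12 of Injured 2. With 2 samples a group, no test for a single outlying sample was possible.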

How the results depend on the processing

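EREG was higher in injured fibroblast-like cells and in the DPP10/TCF21, APOD/CP, WIF1/HHIP and MMP10/MMP3 subsets under every alternative run, and so was NRG1. Differences changed sign in units where the groups overlapped, which were NRG1 in endothelial-like and T cell-like cells and in the RNF39, F3/PLAU and KRT5/ITGA2 sub-clusters, and EREG in the UPK1B and KRT5/ITGA2 sub-clusters. Values that moved by more than 1 SD are given as injured minus normal. At fibroblast resolution 0.2, EREG was 727 CPM in both WIF1/HHIP and MMP10/MMP3, which then shared a cluster (120 and 1365 CPM at resolution 0.4), and NRG1 was 642 CPM in MMP10/MMP3 (794) and 113 CPM in DPP10/TCF21 (129.8). At resolution 0.8, DPP10/TCF21 had 130.02 CPM of EREG (472) and 51.3 CPM of NRG1. The cluster standing for DPP10/TCF21 at that setting held only 864 of its 1912 cells. NRG1 in fibroblast-like cells was 63.2 CPM, 54.1 CPM with a mitochondrial share up to 10%, 66.8 CPM as the mean of cells and 69.8 CPM with TMM factors. NRG1 in DPP10/TCF21 cells was 117 CPM as the mean of cells, and in epithelial-like cells -0.235 CPM with a mitochondrial share up to 10%. Injured minus normal shares of fibroblast-like cells with a UMI were 7.87 percentage points for EREG and 3.82 for NRG1. They were 5.32 and 2.47 thinned to 500 UMIs, 10.8 and 4.88 thinned to 2000 UMIs, and 16.9 and 5.36 not thinned. Of the 5 genes most like EREG, 0 remained with log2(CPM + 1) and 0 with Spearman's rho, and of those most like NRG1, 2 and 1 remained. Leaving out a sample gave EREG differences in fibroblast-like cells of 129.3 to 269 CPM, lowest without Injury 1, and NRG1 differences of 59.8 to 66.5 CPM. In epithelial-like cells EREG ranged from 4.86 to 30.03 CPM and NRG1 from -7.44 to -1.60 CPM.

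Counts of genes called depended strongly on the method. They are given in the order fibroblast-like, epithelial-like, endothelial-like, smooth muscle and pericyte-like, macrophage-like, T cell-like, CCL2/MYOC, DPP10/TCF21, ADH6/PLBD1, APOD/CP, WIF1/HHIP and MMP10/MMP3. They were 0, 117, 0, 0, 0, 291, 18, 3, 0, 68, 0 and 68 in edgeR as reported. DESeq2 gave 273, 513, 53, 77, 54, 322, 150, 96, 85, 144, 37 and 126. No filter on low counts gave 570, 967, 3, 144, 350, 764, 331, 286, 251, 420, 97 and 310. The replicate block gave 370, 58, 0, 26, 49, 413, 231, 272, 4, 89, 32 and 305. A mitochondrial share up to 10% gave 0, 50, 0, 11, 4, 180, 18, 12, 0, 35, 0 and 45. Without the top 5% of doublet scores the macrophage-like count was 3 and the T cell-like count 186, and without integration the T cell-like count was 7. At fibroblast resolution 0.2 the last 6 were 29, 3, 29, 53, 2 and 2, and at 0.8 they were 4, 10, 4, 51, 0 and 62. Leaving out 1 sample gave 36 to 77, 50 to 476, 2 to 14, 2 to 644, 81 to 370, 57 to 739, 0 to 149, 7 to 35, 0 to 54, 107 to 433, 19 to 284 and 63 to 366, where edgeR assumes that a lone sample varies like the others. Counts of pathway and stress list genes were 0, 1, 0, 0, 0, 3, 0, 0, 0, 0, 0 and 3 as reported. They were 2, 4, 0, 1, 1, 6, 1, 0, 1, 1, 0 and 3 in DESeq2, 4, 5, 0, 2, 2, 7, 1, 5, 2, 3, 1 and 4 with no filter, and 4, 0, 0, 0, 0, 6, 1, 5, 0, 0, 1 and 3 with the replicate block. The epithelial-like count was 0 with a mitochondrial share up to 10% and 2 without the top doublet scores, the T cell-like count 1 without those and 0 without integration, and the MMP10/MMP3 count 0 at resolution 0.2. Leaving out 1 sample gave 0 to 1, 0 to 5, 0 to 0, 0 to 8, 0 to 2, 0 to 9, 0 to 1, 0 to 1, 0 to 1, 0 to 5, 0 to 5 and 1 to 6. The cause of these shifts was not tested. Scaling by size factors, a minimum of 1000 UMIs and class resolution 0.3 kept every count of genes called within 1.5 times. AREG in MMP10/MMP3 cells passed in every alternative except resolution 0.2, where edgeR's quasi-likelihood Benjamini-Hochberg adjusted p was 0.297. HSPA8 and HSPB1 there were not called without Injury 1 or Injury 2, or at resolution 0.2. HBEGF in epithelial-like cells was also lost with the replicate block (adjusted p = 0.0682) and with a mitochondrial share up to 10% (adjusted p = 0.0541), both in edgeR's quasi-likelihood test. The T cell-like calls of ADAM10, SPRED1 and HSPA8 were all lost without Injury 1. Samples of both groups carry numbers, but only 2 pairs exist and their deviations correlated at -0.036 to 0.191 over genes, so the numbers are not taken to pair animals. Depth limits the normal EREG values, which rest on 6 and 15 UMIs in fibroblast-like cells.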

Other observations

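BTC, which encodes betacellulin, another EGFR ligand, was found in glial-like cells at 91.6 CPM (15 UMIs) in Injured 1 and 81.2 CPM (18 UMIs) in Injured 2. The glial-like cells of the normal samples held 0 and 1 UMI, on 25 and 7 cells, against 38 and 46 cells in the injured samples. HBEGF stood at 202 to 320 CPM in endothelial-like cells and 175 to 249 CPM in macrophage-like cells over the 4 samples, classes in which EREG and NRG1 were low.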
